A study of Homo sapiens with 6 samples.

Results

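The genes described here encode the machinery of oxidative phosphorylation: the nuclear subunits of respiratory complexes I to IV and of the ATP synthase (complex V), with those assembly factors that carry the same symbol stems. They were taken by symbol from the RefSeq annotation of GRCh38.p14: symbols starting NDUFA, NDUFB, NDUFC, NDUFS or NDUFV, SDHA to SDHD, UQCR, CYC1, COX followed by a digit, or ATP5, without a hyphen. The rule gave 108 of 20037 protein-coding genes, of which 45 belong to complex I, 8 to complex II, 10 to complex III, 26 to complex IV and 19 to complex V. A subunit of complex IV that older annotations call NDUFA4 is now named COXFA4, so it falls outside the rule and is given separately.

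Respiratory complexes pass electrons from NADH and succinate to oxygen and pump protons across the inner mitochondrial membrane, and the ATP synthase uses the proton gradient to make ATP. Most subunits are encoded in the nucleus, while a small set of core subunits comes from mitochondrial DNA, so both genomes have to supply matching parts. MYC, which binds DNA with its partner MAX, preferably at the E-box CACGTG, is known as a regulator of growth genes, among them many for mitochondria.

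MYC was mapped by chromatin immunoprecipitation sequencing (ChIP-seq) in MIAPaCa2, an established human pancreatic ductal adenocarcinoma cell line. All cells went without serum for 48 hours. They then spent 3 hours either in conditioned medium (CM) from cancer-associated fibroblasts or in fresh DMEM, the serum-free control medium. Each condition has 2 immunoprecipitated libraries with a peak list each. The study used 1 tumour line in culture. Separate cultures are not stated for the libraries, so p-values measure only the spread between these libraries, which may be technical. The labels name neither the donors of the fibroblasts nor their number. The peaks measure where MYC was bound, not how much RNA the genes made.

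A library bound a gene, by the rule used here, if any of its peaks came within 1000 bp of the first or last annotated base of that gene. The score of a gene's highest-scoring peak is given as a percentile within its list. This is the percent of peaks with a lower score, with tied peaks placed at their middle rank. A value of 90 thus means a peak above about 90% of its list. The lists differ in length: 15304 and 12797 peaks for CM, and 4657 and 7652 peaks for DMEM. Sequencing depth is unknown, and every count is a count at the authors' threshold. Among 7 ductal and epithelial marker genes, 4 had peaks in both CM lists and 1, MUC1, in both DMEM libraries. Of 8 fibroblast marker genes, 1 had a peak: ACTA2, in CM library 2.

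The promoter letters around the E-boxes come first, since CACGTG is the site MYC is best known for. RefSeq promoter windows, 250 bases before to 50 after a transcription start (GRCh38.p14), were matched for 89 of the 108 genes. CACGTG was present in 9 of them. The 30 bases around each are shown on the strand of the gene, 5′ to 3′, with the E-box in capitals.

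ATP5PB: ggcagcaaacccCACGTGgtgcacctctga
ATP5MC1: gaaggtccaggaCACGTGggtgggggaagc
NDUFS7: acccgcggccccCACGTGcgcactccgatg
UQCR11: cggccgccagacCACGTGgccagaaagcac
NDUFA11: ggcctggggatgCACGTGctactctcttcc
NDUFA7: gcggagaggagtCACGTGcttcggggagag
NDUFAF5: cctaccaagcctCACGTGgggctcacaccc
ATP5ME: gcgcgtgcgcctCACGTGacgtcaccgccg
COX14: ggacgctaccctCACGTGtctggttccgag

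The first 7 genes were bound in all 4 libraries, ATP5ME in both CM libraries alone, and COX14 in CM library 1 alone. In each library where one of these genes was bound, a peak lay over its E-box. Peaks are common at the members with or without an E-box. Over the genome, 662 of 1727 coding genes with CACGTG in the window had no peak at an end in any library. That is a smaller share than the 8167 of all 15842 coding genes with a window. The stretches lie at chr1:111449229-111449258 (ATP5PB), chr17:48892779-48892808 (ATP5MC1), chr19:1383708-1383737 (NDUFS7), chr19:1605632-1605661 (UQCR11), chr19:5903905-5903934 (NDUFA11), chr19:8321478-8321507 (NDUFA7), chr20:13784890-13784919 (NDUFAF5), chr4:674421-674450 (ATP5ME) and chr12:50112171-50112200 (COX14). Those of UQCR11, NDUFA11, NDUFA7 and ATP5ME are on the minus strand. The E-box begins upstream of the start in 8 of the 9 windows. In ATP5MC1 it begins 4 bases after the first base of the transcript.

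Longer upstream stretches are shown for contrast: a gene with an E-box and a peak in all 4 libraries (NDUFA7), the gene with the highest-ranked peaks and no E-box (COX20), a gene bound in CM alone (ATP5ME) and a subunit gene without any peak (ATP5PO). Capitals mark the E-box and its relative CACGCG. The latter reads CGCGTG where it lies on the other strand. Each stretch ends at the base before the outermost start and holds no annotated gene.

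NDUFA7, chr19:8321376-8321495, minus strand: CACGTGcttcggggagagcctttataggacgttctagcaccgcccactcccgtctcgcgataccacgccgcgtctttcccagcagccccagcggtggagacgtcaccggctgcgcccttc
COX20, chr1:244835056-244835305, plus strand: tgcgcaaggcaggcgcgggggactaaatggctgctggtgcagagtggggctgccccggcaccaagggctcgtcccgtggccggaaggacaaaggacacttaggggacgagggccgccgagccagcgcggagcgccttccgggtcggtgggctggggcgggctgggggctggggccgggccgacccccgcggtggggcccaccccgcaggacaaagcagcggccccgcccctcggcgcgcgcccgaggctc
ATP5ME, chr4:674277-674526, minus strand: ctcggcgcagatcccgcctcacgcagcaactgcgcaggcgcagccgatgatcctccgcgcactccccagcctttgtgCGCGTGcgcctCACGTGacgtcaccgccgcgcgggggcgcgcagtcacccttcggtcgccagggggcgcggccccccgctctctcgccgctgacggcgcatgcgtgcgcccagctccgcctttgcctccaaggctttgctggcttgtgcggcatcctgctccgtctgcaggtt
ATP5PO, chr21:33915805-33916054, minus strand: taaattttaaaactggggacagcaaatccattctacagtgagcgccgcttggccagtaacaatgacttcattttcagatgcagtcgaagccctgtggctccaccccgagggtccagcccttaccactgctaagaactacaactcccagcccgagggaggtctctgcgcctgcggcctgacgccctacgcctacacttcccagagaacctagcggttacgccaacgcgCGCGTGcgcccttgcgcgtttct

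The E-box of NDUFA7 begins 120 bases before its start and that of ATP5ME 162 bases before. COX20 carries neither motif in its stretch, and a peak covered its start in all 4 libraries. The stretch stops before the outermost start, however, whereas the promoter windows run past a start. Each promoter window of COX20 holds CACGCG and none holds CACGTG. The peaks of all 4 libraries span these windows, so COX20 is not an example of a peak without CACGCG. ATP5PO has 1 CACGCG, on the other strand, 23 bases before its start, and no peak in any library. The C+G content was 65.8% in the stretch of NDUFA7, 76.8% in that of COX20, 72.0% in that of ATP5ME and 57.2% in that of ATP5PO.

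MYC peaks lay at most of the 108 genes after CM. In CM library 1, 80 genes (74.1%) were bound, beside 43.9% of all protein-coding genes. In CM library 2, 75 genes (69.4%) were bound, beside 40.9%. In DMEM library 1, 36 genes (33.3%) were bound, beside 16.8%, and in DMEM library 2, 49 genes (45.4%), beside 28.1%. The share of respiratory genes was thus above the genome-wide share in each of the 4 libraries, and both CM libraries lay above both DMEM libraries in each set. The mean number bound was 77.5 ± 3.54 in CM and 42.5 ± 9.19 in DMEM (SD, n = 2 libraries each). By an exact permutation test (two-sided), the difference of 35 genes gave p = 0.333, which is the floor for 2 libraries per condition.

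Both CM libraries held a peak at 73 genes (67.6%, beside 39.1% of all protein-coding genes), and both DMEM libraries at 32 (29.6%, beside 15.9%). The same 32 genes were bound in all 4 libraries, again beside 15.9% of all genes. A further 20 genes (18.5%, beside 12.3%) were bound in both CM libraries and 1 DMEM library, and 21 (19.4%, beside 11.0%) in both CM libraries and no DMEM library. Of the others, 8 had a peak in 1 CM library alone and NDUFV1 in CM library 2 and DMEM library 2. No peak lay at an end of 26 genes (24.1%, beside 54.1%). No member was bound in both DMEM libraries without both CM libraries. Among the genes bound in both CM libraries, 43.8% of respiratory genes and 40.6% of all genes were also bound in both DMEM libraries, and 28.8% of respiratory genes (21 of 73) and 2198 of 7837 of all genes were bound in CM alone. The split of CM-bound genes was therefore close to that of the genome.

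**Figure D1:**
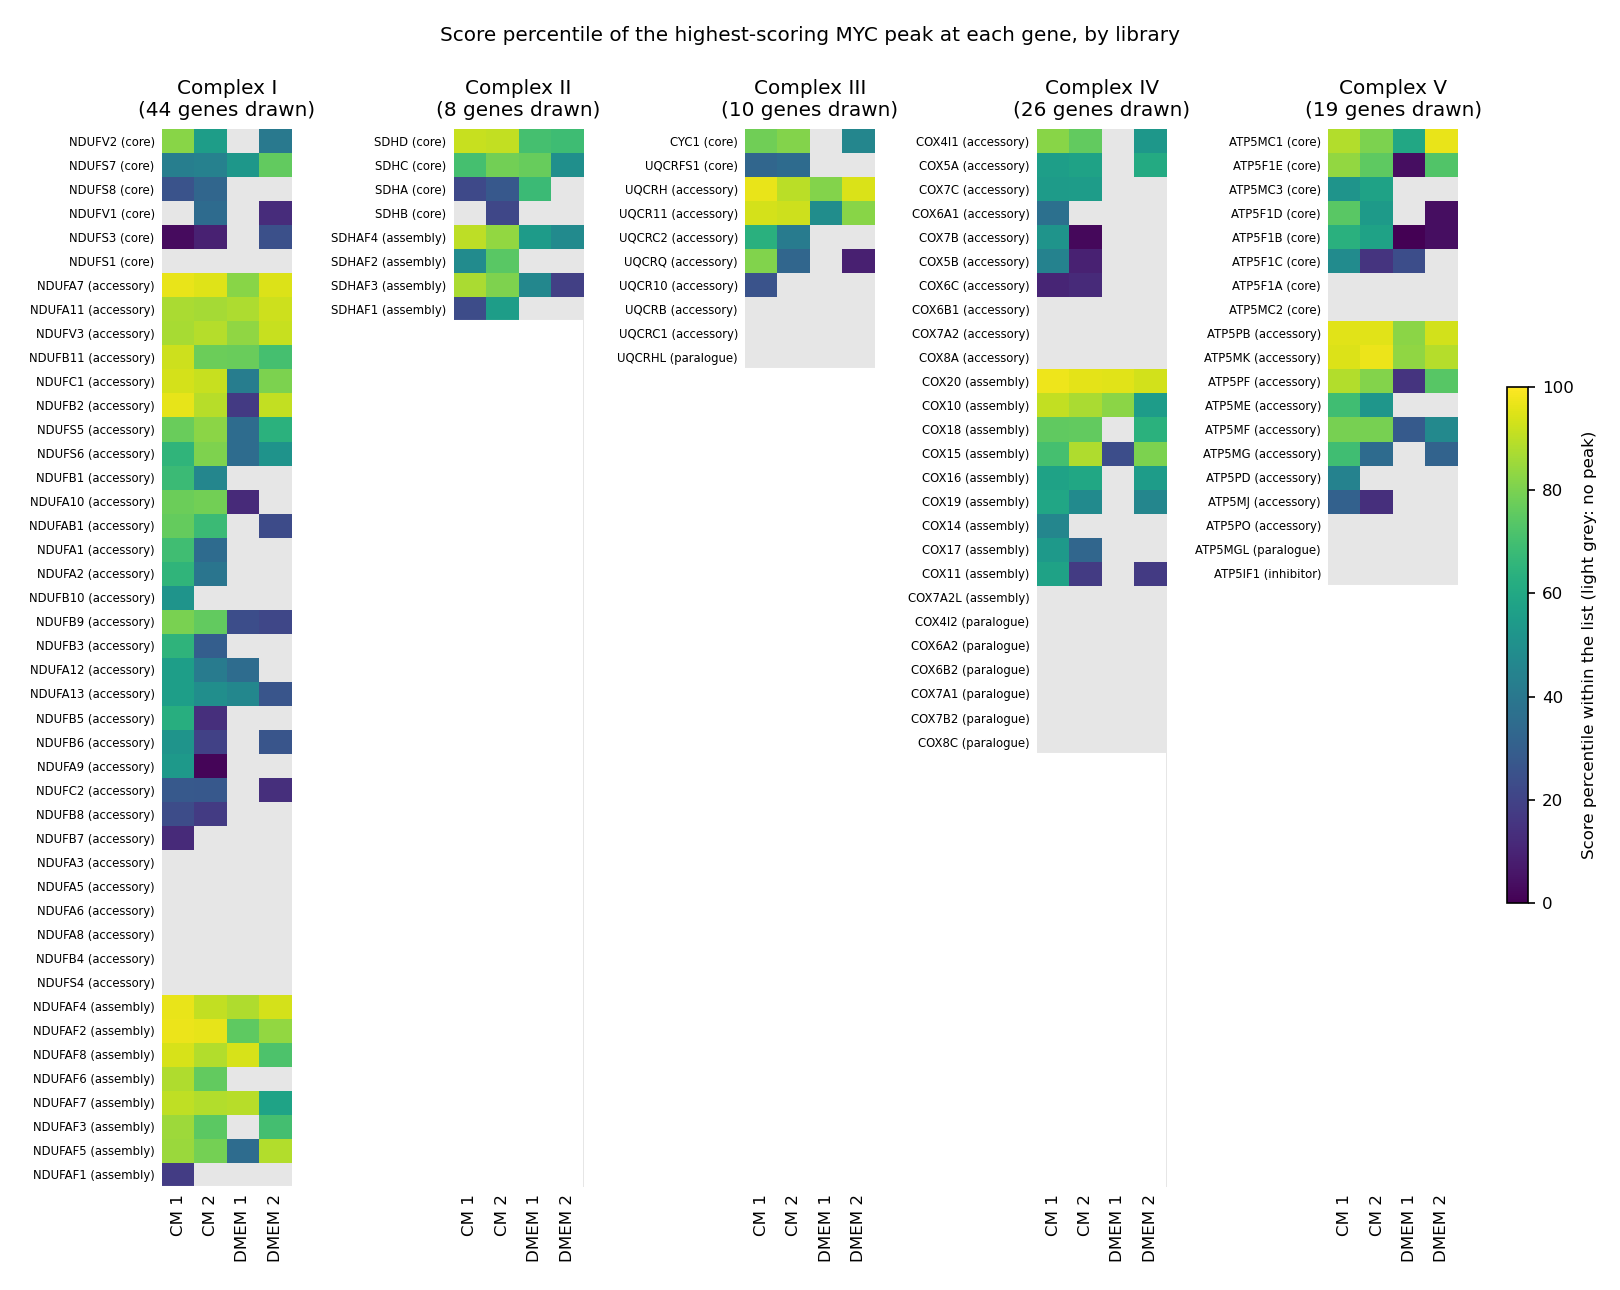
Each row is a gene (1 gene of complex I is not drawn), grouped by complex and role, and each column a library. Colour gives the score percentile of the highest-scoring peak within 1000 bp of a gene end, and light grey means no peak there. COX20, NDUFA7, NDUFAF4 and ATP5PB are bright in all 4 columns, the tissue paralogues of complex IV are grey throughout, and ATP5F1A and ATP5MC2 are grey because their peaks lie at starts inside the gene.

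The outermost ends miss some peaks. Of the 26 genes without a peak there, 4 had one within 1000 bp of another transcription start listed in RefSeq, leaving 22 without a peak at either. ATP5F1A, which encodes the alpha subunit of the catalytic head of ATP synthase, had such a peak in every library, at percentiles 97.1 and 91.2 in CM and 76.5 and 85.6 in DMEM. These values would place it among the highest-ranked members. ATP5MC2, one of the genes for the membrane ring subunit c, had peaks at 70.2 and 74.8 in CM and 3.7 and 48.9 in DMEM. COX7A2L, a factor of respiratory supercomplexes, had peaks at 69.9 and 71.9 in CM and at 2.5 in DMEM library 2 alone. COX7A2 had a single peak, at 2.0 in CM library 1. NDUFAF3, bound at an end in 3 libraries, also had a peak near a listed start in DMEM library 1, at 46.1. With starts counted as well as ends, 76 members (70.4%, beside 41.3% of all genes) were bound in both CM libraries and 35 (32.4%, beside 17.1%) in both DMEM libraries.

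The highest-ranked gene, COX20, encodes a chaperone that helps to assemble the mitochondrially encoded COX2 subunit of complex IV. Its peak stood at percentiles 97.5 and 96.0 in CM and 95.7 and 93.3 in DMEM, scores of 600, 458, 219 and 275. The 4 percentiles lay close together, with both CM values above both DMEM values. The peak was 3420 and 2493 bp wide in CM and 1772 and 1446 bp wide in DMEM. No other coding gene has an end under it.

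NDUFA7, an accessory subunit of complex I, had peaks at 96.6 and 95.0 in CM and 82.3 and 94.9 in DMEM. Its highest peaks in 3 libraries lie at the far end of the gene, which adjoins CD320. At its own start, shared with the ribosomal protein gene RPS28, the percentiles were 91.6 and 80.9 in CM and 82.3 and 86.4 in DMEM. Counted at the start, the conditions overlapped.

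NDUFAF4, an assembly factor of complex I, had percentiles of 96.6 and 90.7 in CM and 87.9 and 93.4 in DMEM. ATP5PB, the subunit b of the peripheral stalk of ATP synthase, had 95.5 in both CM libraries and 82.6 and 93.2 in DMEM. ATP5MK, a small membrane subunit of ATP synthase, had 94.9 and 97.0 in CM and 83.5 and 89.0 in DMEM. The conditions overlapped for NDUFAF4 and not for ATP5PB or ATP5MK.

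UQCRH, the hinge protein of complex III, had 96.6 and 89.7 in CM and 81.5 and 94.3 in DMEM. NDUFA11, a membrane-arm subunit of complex I, had 87.3 and 86.6 in CM and 87.6 and 92.2 in DMEM. It was 1 of 2 members with both DMEM percentiles above both CM percentiles. NDUFV3, an accessory subunit of the NADH-oxidising module, had 87.0 and 88.9 in CM and 83.5 and 91.7 in DMEM.

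The assembly factors NDUFAF2, NDUFAF8 and NDUFAF7 were also among the 12 leading genes. NDUFAF2 had 97.1 and 96.2 in CM and 75.0 and 83.6 in DMEM, so its conditions did not overlap. NDUFAF8 had 93.9 and 88.5 in CM and 94.1 and 72.1 in DMEM. NDUFAF7, a mitochondrial methyltransferase, had 90.6 and 88.5 in CM and 89.1 and 58.2 in DMEM. Both of the last overlapped between conditions through DMEM library 1. ATP5MC1, another subunit c gene, had 88.5 and 80.3 in CM and 59.8 and 96.7 in DMEM, with the DMEM values on either side of the CM values.

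Over all 32 genes bound in all 4 libraries, both CM percentiles lay above both DMEM percentiles in 20 (62.5%), below in 2 (6.25%) and overlapped in 10. Over the 3180 coding genes bound in all 4, the shares were 67.5% and 0.943%. The median percentiles of the 32 genes were 89.3 and 87.0 in CM and 57.3 and 74.9 in DMEM, beside 89.2, 86.6, 63.5 and 77.4 for the 3180 genes. Percentiles depend on the length of the list, since a list with many weak peaks places the same strong peak higher. The other member with the DMEM values above was NDUFS7, described with the core subunits. The widest gap the other way was that of ATP5F1B, the catalytic beta subunit of ATP synthase, at 63.6 and 57.5 in CM and 0.2 and 3.8 in DMEM. Its 4 peaks did not all share a base. In 28 of the 32 genes they did, the other exceptions being NDUFA7, NDUFB9 and NDUFA13.

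Complex I passes electrons from NADH to ubiquinone through a chain of flavin and iron-sulphur centres. Both CM lists held peaks at 33 of its 45 genes (73.3%, beside 39.1% of all genes). Both DMEM lists held peaks at 16 (35.6%, beside 15.9%), before counting NDUFAF3 at an inner start. Of 8 assembly factors, which are not part of the finished enzyme, 7 were bound in CM and 5 in DMEM, with median percentiles of 89.4 and 88.5 in the CM lists. Each of these 7 shares its peak with another gene's end. The 7 nuclear core subunits were bound in 4 and 1 cases, with medians of 34.1 and 35.0.

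Among those core subunits, NDUFV2, an iron-sulphur subunit, had 82.2 and 55.6 in CM and 40.6 in DMEM library 2 alone. NDUFS7, which holds the last iron-sulphur cluster, had 42.7 and 44.1 in CM and 53.0 and 75.9 in DMEM. NDUFS7 was the core subunit of complex I with a peak in both DMEM libraries, and its promoter holds one of the E-boxes shown above. NDUFS8 had 25.5 and 32.9 in CM and no peak in DMEM. NDUFS3 had 2.8 and 9.0 in CM and 24.5 in DMEM library 2, near the bottom of each list. Its CM peaks did not overlap each other. NDUFV1, which binds NADH and the flavin, had 35.0 in CM library 2 and 12.6 in DMEM library 2. NDUFS1 had no peak at an end or a listed start. Each of the bound core subunits other than NDUFV2 thus sat below the middle of the CM lists.

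The 30 accessory subunits of complex I were bound in 22 cases in CM (73.3%, beside 39.1% of all genes) and 10 in DMEM (33.3%, beside 15.9%). Besides NDUFA7, NDUFA11 and NDUFV3, high CM ranks were found at NDUFB2 (96.1 and 89.4 in CM, 17.0 and 90.9 in DMEM), NDUFC1 (93.4 and 91.6, then 42.3 and 80.3) and NDUFB11 (92.3 and 77.5, then 77.3 and 70.6). At NDUFB2 the DMEM libraries stood far apart. No peak lay at NDUFA3, NDUFA5, NDUFA6, NDUFA8, NDUFB4 or NDUFS4. The peaks counted for NDUFB6 lie at its far end, which adjoins TOPORS and SMIM27, and none lay at its start.

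Complex II oxidises succinate and links the citric acid cycle to the chain, with all its subunits encoded in the nucleus. Of its 8 genes, 7 had peaks in both CM lists and 4 in both DMEM lists. SDHD, a membrane anchor, had 91.5 and 91.0 in CM and 70.7 and 68.8 in DMEM, and SDHC, the other anchor, 70.5 and 78.9 in CM and 76.7 and 49.8 in DMEM. The anchors were bound in all 4 libraries. Both catalytic subunits ranked lower: the flavoprotein SDHA had 21.9 and 27.4 in CM and 68.0 in DMEM library 1 alone, and the iron-sulphur subunit SDHB had a single peak, at 21.3 in CM library 2.

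The assembly factors SDHAF4 (90.0 and 83.8 in CM, 54.8 and 47.9 in DMEM) and SDHAF3 (87.3 and 80.8, then 46.1 and 18.9) were bound in all 4 libraries. SDHAF2, which helps to attach the flavin to SDHA, had 48.3 and 74.5 in CM, and SDHAF1 had 23.1 and 55.6. Neither of these had a peak in DMEM. The peaks of SDHD also lie at ends of TIMM8B and NKAPD1, those of SDHA at CCDC127 and those of SDHAF2 at CPSF7.

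Complex III passes electrons from ubiquinol to cytochrome c. Both CM lists held peaks at 6 of its 10 genes (60.0%, beside 39.1% of all genes). Both DMEM libraries held peaks at 2, UQCRH and UQCR11 (20.0%, beside 15.9%). CYC1, the cytochrome c1 subunit, had 78.3 and 81.6 in CM and 45.9 in DMEM library 2. UQCRFS1, the Rieske iron-sulphur protein, had 32.9 and 35.0 in CM and no peak in DMEM. Its CM peaks did not overlap each other. UQCR11, a small accessory subunit, had 93.6 and 92.5 in CM and 49.2 and 82.2 in DMEM, with both CM values above both DMEM values. UQCRC2 was bound in CM alone, at 63.6 and 41.7, whereas its structural partner UQCRC1 had no peak, nor had UQCRB.

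Complex IV, cytochrome c oxidase, reduces oxygen to water. Its catalytic subunits are mitochondrially encoded, so the nuclear genes cover accessory subunits, assembly factors and tissue paralogues. Of 26 genes, 14 had peaks in both CM lists (53.8%, beside 39.1% of all genes). In both DMEM lists 3 had peaks, which is 11.5% beside 15.9% of all genes. The 26 genes include 6 paralogues without a peak. The 3 in DMEM, COX20, COX10 and COX15, are assembly factors; COX10 and COX15 make the haem of the enzyme. COX10 had 90.8 and 87.4 in CM and 82.6 and 55.1 in DMEM. COX15 had 70.7 and 88.0 in CM and 23.8 and 80.3 in DMEM.

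Of 10 ubiquitous accessory subunits of complex IV, 6 were bound in both CM libraries (60.0%, beside 39.1% of all genes). None was bound in both DMEM libraries, beside 15.9% of all genes. COX4I1 had 82.2 and 75.8 in CM and 53.0 in DMEM library 2, and COX5A had 56.1 and 57.5 in CM and 61.1 in DMEM library 2. COX7C, COX7B, COX5B and COX6C were bound in CM alone. At COX5B and COX6C the peaks of the CM libraries did not overlap each other. With an overlap of 1 bp required, 12 of 26 complex IV genes were bound in CM, beside 38.4% of all genes. Without DMEM library 1, the shortest list, the count of complex IV genes in DMEM was 9, so 1 library sets most of the low count. Those 9 of 26 genes are a share above the 28.1% of all genes in that setting. COXFA4, outside the rule, was bound in all 4 libraries (62.0 and 63.7 in CM, 53.9 and 36.8 in DMEM).

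Paralogue pairs differed. COX4I1 was bound, while COX4I2, its lung and hypoxia paralogue, had no peak. COX6A1 had a peak at 36.8 in CM library 1, and its heart and muscle paralogue COX6A2 had none. COX7B was bound in CM (51.6 and 2.3), and COX7B2 had no peak. In the pairs COX6B1 and COX6B2, COX7A2 and COX7A1, and COX8A and COX8C, neither gene had a peak at an end. None of the 8 paralogues in complexes III, IV and V had a peak in any library.

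Complex V makes ATP. Both CM lists held peaks at 13 of its 19 genes (68.4%, beside 39.1% of all genes). Both DMEM lists held peaks at 7 (36.8%, beside 15.9%). This is before counting ATP5F1A and ATP5MC2 at their inner starts. In the catalytic head and central stalk, ATP5F1E had 83.9 and 75.1 in CM and 3.7 and 72.7 in DMEM. ATP5F1D had 74.3 and 54.4 in CM and 3.8 in DMEM library 2. Its highest peak in CM library 1 lies outside the gene, by an end of CBARP, and overlaps neither of the others. ATP5F1C had 48.3 and 15.1 in CM and 23.8 in DMEM library 1. ATP5MC3, the third subunit c gene, was bound in CM alone at 51.6 and 57.5. The 3 subunit c genes, which encode the same mature protein, thus differed: ATP5MC1 ranked high, ATP5MC2 had peaks at an inner start and ATP5MC3 had none in DMEM.

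In the stalk and membrane part, ATP5PF, a peripheral stalk subunit, had 88.6 and 81.6 in CM and 15.1 and 74.0 in DMEM. Its start is shared with GABPA, a subunit of an ETS-family regulator of respiratory genes, and the same peaks count for both. ATP5ME had 69.3 and 52.7 in CM and no DMEM peak. ATP5PO, the stalk subunit that confers oligomycin sensitivity, and ATP5IF1, the inhibitor of ATP hydrolysis, had no peak.

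Across complexes, 15 of 21 core subunits, 39 of 56 accessory subunits and 19 of 22 assembly factors were bound in both CM libraries. In both DMEM libraries 6, 16 and 10 were bound. The shares were 71.4%, 69.6% and 86.4% in CM, beside 39.1% of all genes. In DMEM they were 28.6%, 28.6% and 45.5%, beside 15.9%. Without peaks at another gene's end, the counts were 9, 15 and 9 in CM and 4, 3 and 4 in DMEM. In CM this is 9 of 21 core subunits and 9 of 22 assembly factors. All coding genes stood at 25.4% in CM and 9.86% in DMEM in that setting. It drops more peaks of members, which more often have a close neighbour, so it cannot compare them with other genes on unshared peaks. Core here means the redox centres of complexes I to III with the membrane anchors of complex II, and the head, central stalk and c ring of complex V. The median of the mean CM percentile of the genes bound in both was 82.0 for assembly factors and 58.8 for all core and accessory subunits. Genes are not replicates, so these differences are descriptions of these libraries with no test.

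**Figure D2:**
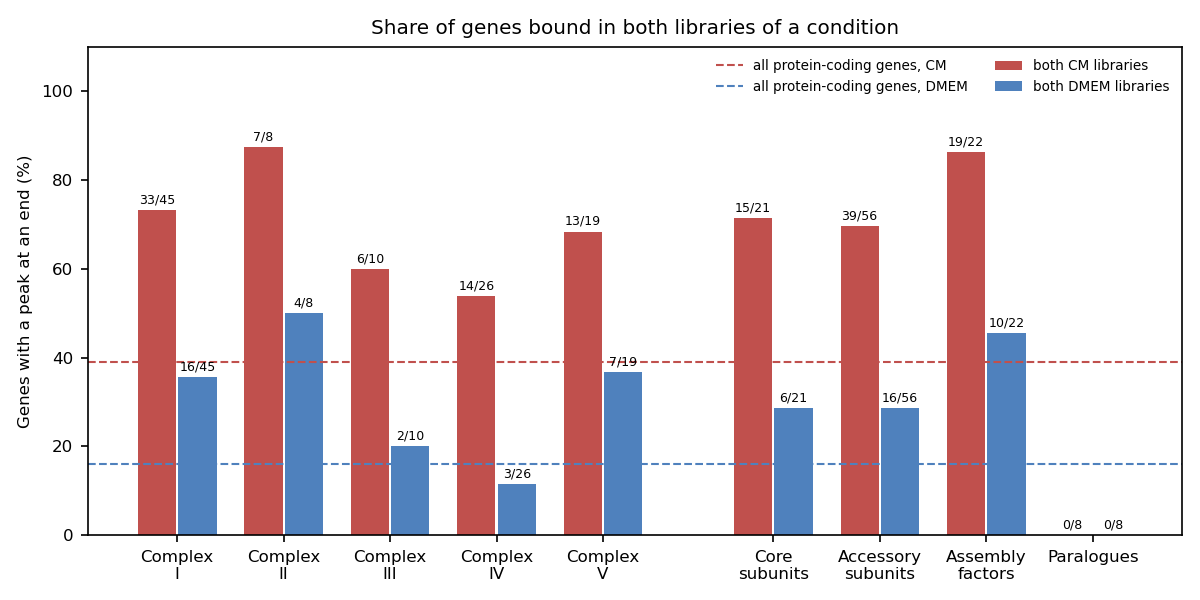
Bars give the percent of genes with a peak at an end in both CM libraries (red) or both DMEM libraries (blue), by complex and by role, with counts above each bar. Dashed lines mark the shares of all protein-coding genes, 39.1% and 15.9%. Complex IV in DMEM and the paralogues in both conditions lie below their lines, and assembly factors have the tallest pair among the roles.

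The highest-ranked genes bound in CM alone came from all 5 complexes. NDUFAF6, an assembly factor of complex I, led with 88.2 and 75.8 in CM. Its peak lies at the end it shares with CCNE2, which encodes cyclin E2. NDUFB1 had 68.3 and 46.0, NDUFA1 69.3 and 35.0, NDUFA2 65.3 and 39.0 and NDUFB3 65.0 and 29.7, all accessory subunits of complex I. COX7C had 54.9 and 55.3. In most of these genes CM library 1 gave the higher percentile, and the exceptions among the 10 leading genes were SDHAF2, COX7C and ATP5MC3.

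The number of genes bound in CM alone depends on the length of the lists. When each list was reduced to its 4657 highest-scoring peaks, the length of the shortest, the members bound were 38 and 37 in CM and 36 and 36 in DMEM. Both CM libraries then shared 35 members (32.4%, beside 18.0% of all genes), and both DMEM libraries 28 (25.9%, beside 13.9%). Members in CM alone fell from 21 to 2, NDUFAB1 and NDUFAF6 (1.85%, beside 1.89%). Members in DMEM alone numbered 1, NDUFS7 (0.926%, beside 0.364%). NDUFAB1 encodes the mitochondrial acyl carrier protein, which also serves in complex I. Whether the CM lists are longer through more binding, more reads or a better immunoprecipitation cannot be told apart from peak lists. In the reduced lists, 13 of 22 assembly factors and 22 of 77 core and accessory subunits were shared by both CM libraries, and none of the 7 complex I core subunits was.

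**Figure D3:**
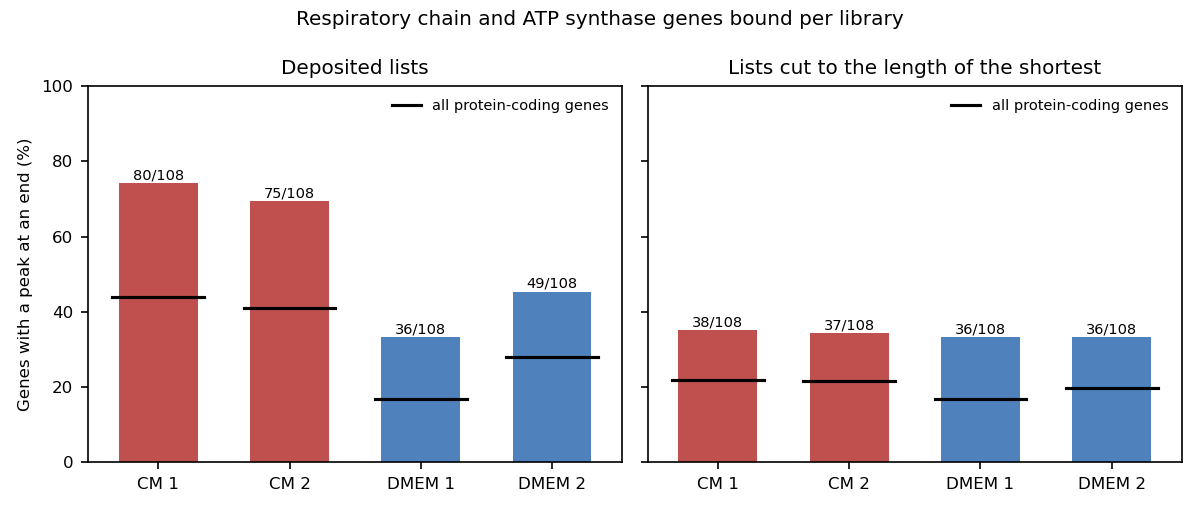
Bars give the percent of the 108 genes bound in each library, from the deposited lists on the left and from lists of 4657 peaks each on the right, with counts above the bars and black lines at the share of all protein-coding genes. The CM bars exceed the DMEM bars on the left, and the right-hand bars lie between 36 and 38 genes, all above the lines.

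Where bound, the members ranked like other bound genes. Their median percentile was 69.3 and 59.6 in CM and 53.9 and 61.1 in DMEM, beside 69.3, 65.7, 59.8 and 60.4 for all bound coding genes. The mean of the CM medians exceeded that of the DMEM medians by 6.95 points (exact two-sided permutation p = 0.667), and the conditions overlapped. The difference was 1.75 points in lists of equal length (exact permutation p = 1.0), 2.7 with a minimum score of 50 and 13.55 at transcription starts alone. The median peak width was 1249 and 891 bp in CM and 547 and 661 bp in DMEM. The CM widths lay above the DMEM widths by 466 bp in the mean (exact two-sided permutation p = 0.333, the smallest possible), and by 988.25 bp in lists of equal length. The widths over all bound coding genes, 1161 and 878 bp against 528 and 537.5 bp, were ordered the same way.

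The call rule itself places peaks near gene ends, so their position is a description. Of the bound members with a known start, the highest peak covered a start in 83.6% and 85.5% in the CM libraries and 71.0% and 77.5% in the DMEM libraries, beside 72.1%, 70.5%, 53.4% and 61.9% over all bound coding genes. The median distance from start to peak centre was −2.0 and −24.5 bp in CM and −140.0 and −16.5 bp in DMEM, where negative is upstream.

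**Figure D4:**
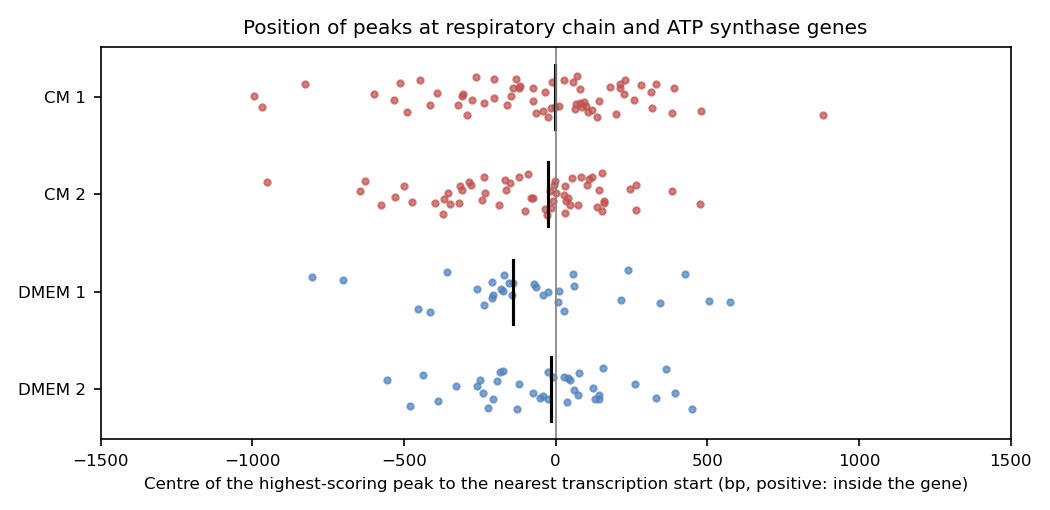
Each point is the highest-scoring peak of a respiratory gene, placed by the distance of its centre from the nearest transcription start (bp, positive inside the gene), with 1 row per library and a black bar at the median. The points gather around 0 in all 4 libraries, and 7 points beyond 1500 bp, from NDUFA7, NDUFB6 and NDUFB10, are not drawn.

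Many members share their promoter with another gene. Of the 108 genes, 51 (47.2%) have an end of another coding gene within 1000 bp, beside 28.5% of all coding genes. Of 89 genes with a listed start, 31 (34.8%) have a divergent start of another gene within 1000 bp, beside 13.6%. The highest peak of a bound member also lay at another gene's end in 53.8% and 53.3% of cases in CM and 63.9% and 57.1% in DMEM, beside 35.8%, 35.0%, 37.3% and 36.2% over all bound genes. Of the 12 leading members, 10 shared a peak in this way. The partners include RPS28, the nucleolar gene PDCD11 at ATP5MK, the tRNA methyltransferase gene WDR4 at NDUFV3 and WDR77 at ATP5PB. COX20 and ATP5MC1 have no such neighbour under their peaks. Which gene of a pair the bound MYC acts on was not tested.

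The higher share of bound members was present in genes with and without a close neighbour. With a neighbour, 40 of 51 members (78.4%) were bound in both CM libraries, beside 57.9% of all genes of that kind, and 20 (39.2%) in both DMEM libraries, beside 25.2%. Without one, 33 of 57 members (57.9%) were bound in CM, beside 31.6%, and 12 (21.1%) in DMEM, beside 12.2%. When every peak that also lay at another gene's end was dropped, 33 members (30.6%) stayed bound in both CM libraries, beside 25.4% of all genes, and 11 (10.2%) in both DMEM libraries, beside 9.86%. The DMEM share of the members was then close to the genome-wide share. This setting keeps every gene in the count, however. Members more often have a close neighbour (47.2%, beside 28.5% of all coding genes), so more of their peaks are dropped. These last shares therefore cannot say how members compare with other genes on peaks of their own.

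**Figure D5:**
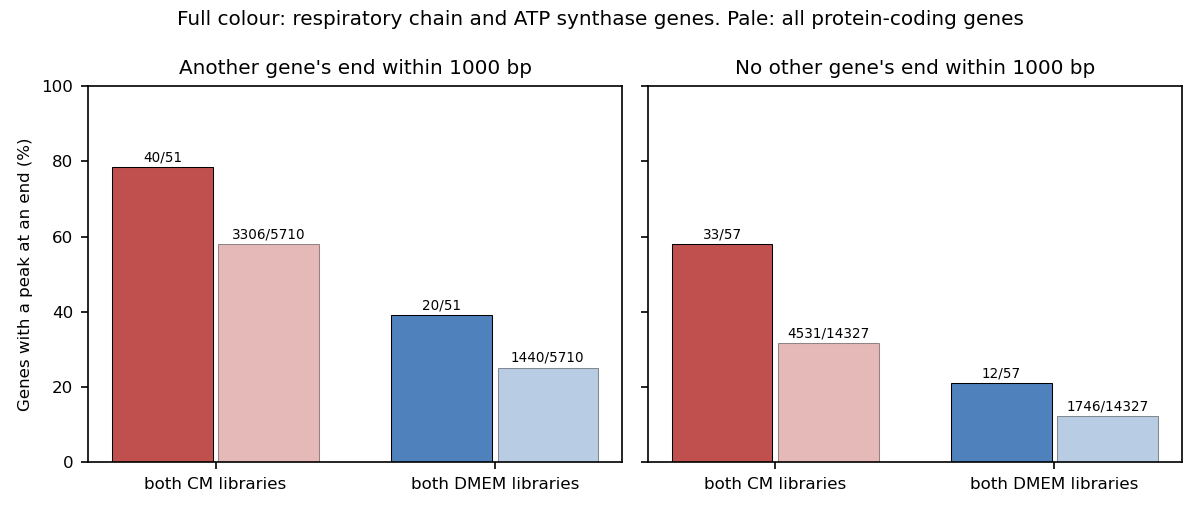
Bars give the percent of genes with a peak at an end in both CM libraries (red) or both DMEM libraries (blue), for genes with another coding gene's end within 1000 bp (left) and without (right), in full colour for respiratory genes and pale for all protein-coding genes, with counts above. In all 4 pairs the respiratory genes are higher, and both sets are higher on the left.

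In the promoter windows, 5 motifs were counted. Each motif was searched on both strands, and overlaps between different motifs were allowed. CACGTG was found in 9 of 89 members (10.1%), beside 10.9% of 15842 coding genes, so it was no more frequent in the members. It was present in 7 of 27 members bound in all 4 libraries (25.9%, beside 20.0% of coding genes bound in all 4), in 1 of 17 bound in CM alone, in 1 of 8 bound in 1 CM library, in 0 of 16 bound in CM and 1 DMEM library, and in 0 of 20 with no peak. CACGCG was found in 27.0% of members, beside 18.1% of all genes. Its share was 29.6% in members bound in all 4 libraries and 30.0% in members with no peak, beside 811 of 2685 and 979 of 8167 of all genes in those classes. All these classes count peaks at the outer gene ends alone. The members with no peak thus include ATP5F1A, ATP5MC2, COX7A2 and COX7A2L, which had peaks at inner starts.

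Letters of 3 other motifs were more frequent in the members than in all windows. GCATGCGC, part of the site of NRF1, a regulator of respiratory genes, was found in 21.3% of members, beside 4.89% of all. CCGGAAG, an ETS-family site such as GABPA binds, was found in 32.6%, beside 16.5%. AAGATGG, the core of the YY1 site, was found in 22.5%, beside 7.9%. CCGGAAG was present in 12 of 27 members bound in all 4 libraries (44.4%) and 4 of 20 with no peak at an end (20.0%), beside 27.1% and 8.9% of all genes in those classes. The 4 include ATP5F1A, which had peaks at an inner start in all 4 libraries. GCATGCGC was present in 6 of 27 and 5 of 20 members, beside 7.64% and 2.77%, and AAGATGG in 6 of 27 and 6 of 20, beside 323 of 2685 and 481 of 8167. The 5 of 20 with GCATGCGC include ATP5MC2, which also had peaks at an inner start in all 4 libraries. The class with no peak at an end therefore holds some bound promoters. All these counts are matches of letters in a window of 300 bases and say nothing about whether a factor is bound.

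Other genes of the pathway were counted by list, beside 39.1% of all genes in CM and 15.9% in DMEM. Of 45 assembly factors outside the symbol rule, 42 (93.3%) had peaks in both CM lists and 22 (48.9%) in both DMEM lists. HIGD2A (99.7 and 99.4 in CM, 92.8 and 97.3 in DMEM) and COA7 (98.4 and 99.0, then 95.2 and 98.9), both factors of complex IV, ranked above every member in CM. BCS1L, which inserts the Rieske protein into complex III, had 97.9 and 93.2 in CM and 72.5 and 93.1 in DMEM. SURF1 and DMAC2 had no peak.

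Of 20 genes for electron carriers and enzymes that feed the chain, 15 (75.0%) were bound in CM and 8 (40.0%) in DMEM, beside 70.1% and 28.6% of the core and accessory subunits. CYCS, cytochrome c itself, had 97.8 and 94.1 in CM and 85.8 and 94.5 in DMEM. PDSS1, which makes the tail of ubiquinone, had 92.6 and 98.0 in CM and 84.4 and 96.6 in DMEM. DHODH, which feeds electrons from pyrimidine synthesis to ubiquinone, had 96.1 and 97.7 in CM and 50.6 and 87.6 in DMEM.

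Of 18 regulators of respiratory genes and of the mitochondrial genome, with carriers and channels of the mitochondrial membranes, 15 (83.3%) were bound in CM and 10 (55.6%) in DMEM. GABPB1, partner of GABPA, had 99.2 and 98.9 in CM and 99.3 and 99.7 in DMEM, and PPARGC1B, a coactivator, 98.3 and 98.1 in CM and 97.3 and 91.0 in DMEM. PPARGC1A had no peak. TFAM, which packages mitochondrial DNA, had 69.3 and 81.6 in CM and 13.6 in DMEM library 2. These lists were chosen with earlier results of these data known.

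Ribosomal genes set the scale. Both CM libraries held a peak at 76 of 88 genes for cytosolic ribosomal proteins, and both DMEM libraries at 70, with 1 in CM alone. For mitochondrial ribosomal proteins the counts were 62 and 34 of 77 genes, with 11 in CM alone. The 108 respiratory genes, at 73, 32 and 21, had the lowest share of the 3 sets in DMEM: 29.6%, beside 44.2% of mitochondrial and 79.5% of cytosolic ribosomal genes. Over all protein-coding genes the shares were 39.1% in both CM libraries, 15.9% in both DMEM libraries and 11.0% in CM alone.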

How the data were processed

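The deposited peak list of each of the 4 immunoprecipitated libraries gives, per peak, a position and a score in whole numbers. The score is the authors' value, on a scale that is not given in the sources used here. It served only to rank or filter within a list. The submitters' processing notes name GRCh38 as the build and list MACS2 2.1.1.20160309, Picard 2.9.0, SAMtools 1.3.1, Bowtie2 2.3.4 and Trim Galore 0.4.3, without settings. Inputs were not analysed here, and neither was the list of peaks common to all libraries. The lists hold no read counts, so depth is unknown and no scaling between libraries was possible.

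Gene positions and promoter windows came from RefSeq (GRCh38.p14). Gene calls were computed with Python 3.11.15, pandas 2.3.3 and NumPy 2.4.6 and were checked on simulated peaks. A condition's call required both of its libraries. Values per library were compared across conditions by exact permutation (two-sided, 6 relabellings). Complexes, roles and lists were described by counts beside all protein-coding genes, with no test.

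The members, lists and named genes were chosen with earlier results of these data known. Named genes are the 12 members with the highest mean percentile among those bound in all 4 libraries, up to 10 bound in CM alone, all of complex II, core subunits of complexes I and III, complex IV paralogue pairs, members without a peak, and partners at shared ends. Other genes named as examples, the values at inner starts, the split by close neighbours and the comparison of percentiles between conditions were chosen after the values were seen. Alternatives were window sizes of 500 and 2500 bp, transcription starts alone, peak midpoints, a minimum score of 50, lists of equal length, peaks not shared with another gene, overlapping peaks, the authors' common lists, each library left out, and a replicate block. Counting every listed start beside the gene ends was added after seeing the data. In complex I, 1 member is counted but not reported here by name.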

Additional observations from a re-analysis of the deposited data

How the results depend on the processing

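Under every alternative run, more members were bound in both CM libraries than in both DMEM libraries, and both shares were above those of all coding genes, although the counts moved. The stricter settings remove peaks by construction. In lists of equal length, 35 members were bound in both CM libraries, 2 in CM alone and 1 in DMEM alone. The CM counts were then 17, 4, 3, 5 and 6 for complexes I to V, 5 for core and 17 for accessory subunits. With a minimum score of 50, 20 members were bound in both DMEM libraries and 20 in all 4, with 10 in complex I, 3 in complex V and 9 accessory subunits in DMEM. Without peaks at another gene's end, 33 members were bound in CM, 11 in DMEM, 11 in all 4 and 11 in CM alone. In that setting the counts in CM and DMEM were 8 and 3 for complex I and 6 and 2 for complex V. They were 15 and 3 for accessory subunits and 9 and 4 for assembly factors. In CM they were 4 for complex II and 9 for core subunits, and in DMEM 1 for complex III. All coding genes stood at 25.4% in CM and 9.86% in DMEM. Complex I lay below both of these shares, and complex IV and the accessory subunits lay below the share in DMEM. Members more often have a close neighbour, so this setting drops more of their peaks. These shares therefore cannot say how a complex or role compares with other genes on peaks of its own. When the peaks of a condition had to overlap by 1 bp, 69 members (63.9%, beside 38.4% of all genes) were bound in CM. In DMEM 31 were bound (28.7%, beside 15.1%), and in CM alone 18 (16.7%, beside 10.4%). By the authors' common lists, 38 members (35.2%, beside 23.7% of all genes) were bound in CM alone, since these lists need both DMEM libraries for a DMEM call.

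With each library left out in turn, the difference in members bound ranged from 28.5 to 41.5, that in median percentile from 2.1 to 11.8 and that in median width from 287 to 645 bp. Members bound ranged from 73 to 80 in CM, from 32 to 49 in DMEM, from 32 to 48 in all libraries kept and from 22 to 37 in CM alone. DMEM counts ranged from 2 to 4 for complex III, from 3 to 9 for complex IV and from 6 to 11 for core subunits, with the higher value without DMEM replicate 1. All coding genes stood at 28.1% in DMEM without that replicate. CM alone reached 37 without DMEM replicate 2. As a replicate block, in which libraries with the same number are paired, the difference in members bound was again 35 (exact sign-flip p = 0.5, the smallest possible). The numbers were not taken as pairs. Deviations of a gene's percentile from its condition mean had a correlation of 0.0496 over 3180 genes between same-numbered libraries. With 2 libraries per condition, both pairs give the same value by construction. It does not measure how alike the ranks of genes were between libraries. Depth is unknown, and a missing peak means only that none passed the authors' threshold.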
